A study of Mus musculus with 28 samples.

Results

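The pro-apoptotic arm of the BCL2 family was followed across mouse ovaries with and without radiation damage. Its 10 members were chosen by gene symbol: the 3 effectors Bax, Bak1 and Bok, and the 7 BH3-only genes Bbc3 (encoding PUMA), Pmaip1 (encoding NOXA), Bcl2l11 (encoding BIM), Bid, Bad, Bmf and Bik. These are 10 of the 44674 genes of the bulk table, and all 10 were among the 26790 genes that had enough counts to be tested. All 10 were also found in the single-cell gene list.

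In the mitochondrial route of apoptosis, effector proteins of the BAX and BAK type open pores in the outer mitochondrial membrane, which releases cytochrome c and lets APAF1 activate caspase 9. Pro-survival relatives such as BCL2, BCL-XL and MCL1 hold the effectors in check, and BH3-only proteins relieve that block or engage the effectors directly. Bbc3, Pmaip1 and Bax are well-known transcriptional targets of p53. In the quiescent oocytes of primordial follicles the p53 relative TAp63, phosphorylated by the kinase CHEK2, is the key driver of apoptosis after DNA breaks. The study also detected phosphorylated p53 in irradiated oocytes.

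The study exposed juvenile females, about a week of age, to a single whole-body dose of 0.5 Gy of ionizing radiation (IR) or to sham treatment (non-IR) and took the ovaries 6 h later. Wild-type mice were compared with Chek2-/- mice, which carry the tm1b deletion allele of Chek2 in every cell, so the 4 groups were wild-type non-IR, wild-type IR, Chek2-/- non-IR and Chek2-/- IR. The study does not state whether the wild-type mice were littermates of the Chek2-/- mice. Loss of Chek2 and any difference in line background therefore cannot be told apart here. Bulk RNA-seq covered 6 libraries in each group, each made from a pair of ovaries, and single-cell RNA-seq covered 1 library per condition from the pooled ovaries of several females. The 24 bulk libraries held 17824920 to 32605519 estimated counts each, and 8697 to 9779 cells per single-cell library were used. Chek2 itself stood at 19.8 to 24.6 CPM (counts scaled to the size of the library) in wild-type non-IR ovaries and 18.5 to 23.5 CPM in wild-type IR ovaries, against 2.88 to 4.44 CPM and 3.34 to 4.53 CPM in the matching Chek2-/- groups.

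Some bulk libraries stood apart before any test was made. In the Chek2-/- libraries numbered 6, the summed level of the 12 oocyte markers, all measured, was 2023 CPM (non-IR) and 2272 CPM (IR), against 3443 to 3876 CPM in the other 10 Chek2-/- libraries. Neutrophil genes summed to 1430 CPM in wild-type IR library 3 and to 1581 CPM in Chek2-/- IR library 2, against at most 12.1 CPM elsewhere. Erythroid genes summed to 10530 CPM in Chek2-/- non-IR library 5 and to 7082 CPM in Chek2-/- IR library 2, against at most 926 CPM elsewhere. The results below are given for all libraries. Each count of members was also made without both libraries numbered 6, without both libraries with neutrophil genes, and without each single library. The libraries that stood apart were not all left out at once.

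Radiation raised 3 of the 10 members in wild-type ovaries, the BH3-only genes Bbc3 and Pmaip1 and the effector Bax, and a change was not detected for the other 7. At an adjusted p of at most 0.05, 2.41% of all genes tested were called in this comparison. With a further minimum of a 2-fold change, 1.08% of all genes and 2 of the 10 members, Bbc3 and Pmaip1, were called. The same 3 members were called without both Chek2-/- libraries numbered 6, without both libraries with neutrophil genes, and without any single library.

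Bbc3 encodes PUMA, a BH3-only protein able to bind all the pro-survival relatives. In wild-type non-IR ovaries Bbc3 ranged from 4.43 to 7.26 CPM (median 5.88), and in wild-type IR ovaries from 18.6 to 27.5 CPM (median 22.0). Every irradiated library was above every control library. The log2 fold change of Bbc3 was 1.89 (SE 0.12, 3.71-fold, 95% interval 3.13 to 4.398, adjusted p = 7.0e-11 in edgeR's quasi-likelihood test).

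Pmaip1 encodes NOXA, a BH3-only protein that binds chiefly MCL1. It was among the least abundant members in control ovaries, at 1.78 to 3.69 CPM (median 2.37), and reached 12.7 to 22.6 CPM (median 15.3) after radiation, again with no overlap between the groups. Its log2 fold change of 2.68 (SE 0.19, 6.39-fold, interval 4.88 to 8.38, edgeR adjusted p = 5.3e-10) was the largest of the 10 members in wild-type ovaries.

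Bax encodes the pore-forming effector BAX. It ranged from 45.5 to 58.2 CPM (median 49.1) in wild-type non-IR ovaries and from 67.1 to 83.9 CPM (median 79.1) in wild-type IR ovaries, so these groups did not overlap either. The log2 fold change of Bax was 0.60 (SE 0.06, 1.52-fold, interval 1.395 to 1.66, edgeR adjusted p = 2.4e-07). Groups that do not overlap were found for 2.56% of all genes in this comparison.

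**Figure D1:**
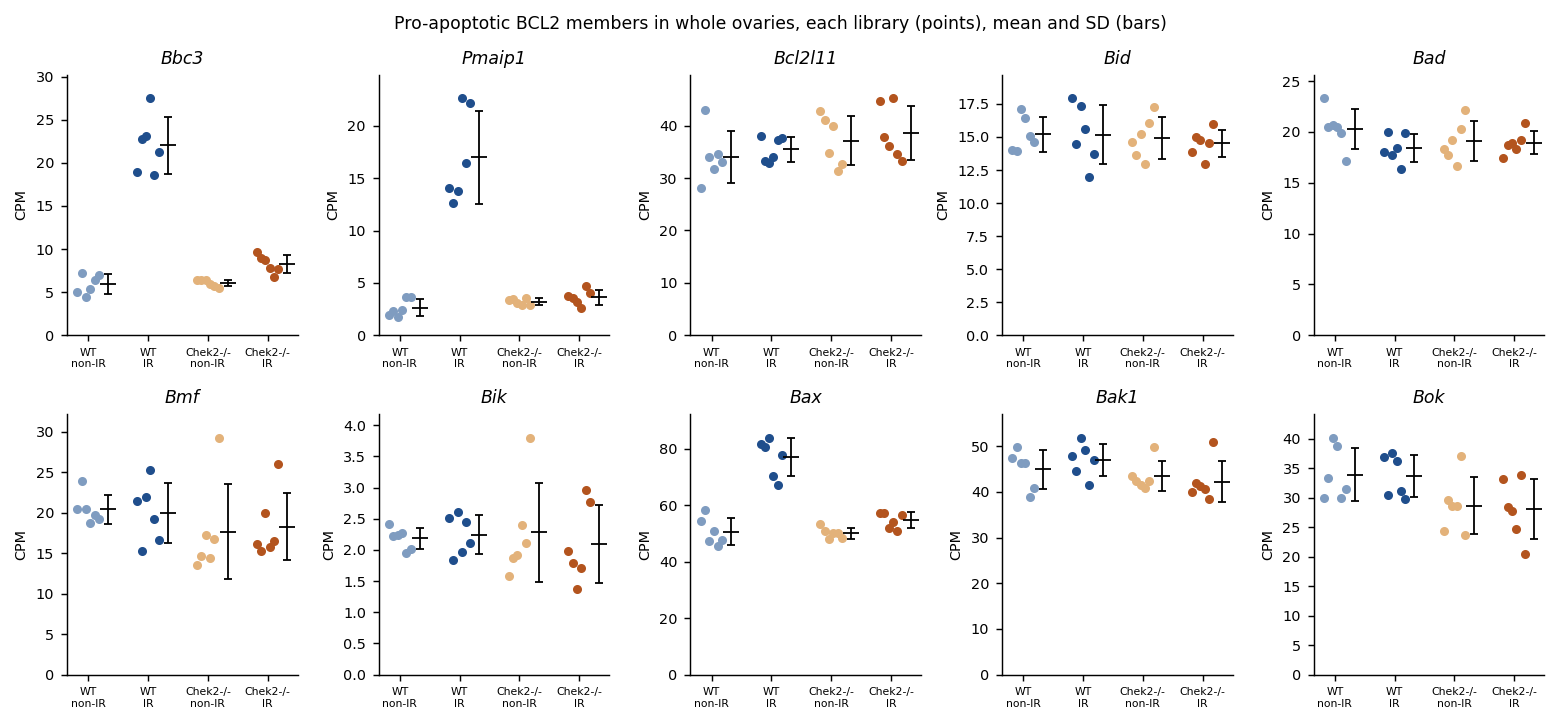
CPM of the 10 members (vertical axes, each starting at 0) in the 4 groups of 6 bulk libraries; points are libraries and bars give the mean and SD. Wild-type IR ovaries lay above wild-type non-IR ovaries without overlap for Bbc3, Pmaip1 and Bax, and Chek2-/- library 6 was the highest of its group for Bmf, Bik and Bak1 among non-IR ovaries.

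The promoter windows of the members were searched for the p53 family half-site, since the 3 genes that rose are known p53 targets. The RefSeq promoter windows searched (GRCm38.p6, 250 bases before to 50 bases after a start) covered 8 of the 10 members, in 14 windows. No window of Pmaip1 or Bik was searched, so nothing is read about the half-site in these genes. The half-site, a motif of 10 letters that reads the same on both strands, occurred in 2 of the 14 windows, compared with 8.36% of the 32851 windows searched. No member window held 2 half-sites with at most 13 bases between them, as 0.073% of the windows searched did. The 2 single half-sites are shown to set a member that rose beside one that did not. Each has 10 bases on either side and the match in capitals.
Bax, chr7:45467080-45467109, minus strand: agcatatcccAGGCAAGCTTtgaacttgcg
Bmf, chr2:118544781-118544810, minus strand: cccaagtgaaGGGCTTGCCTcttgccgaat
The matches began 201 bases before the start of Bax and 213 bases before 1 of the 3 starts of Bmf that had a window. The window at the annotated start of the Bmf gene held no match. The 3 windows of Bbc3 held no match, which says only that these letters were not in the windows searched.

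A change was not detected for the other effectors in bulk. Bak1, whose product sits in the outer mitochondrial membrane, had medians of 46.3 CPM in wild-type non-IR ovaries and 47.4 CPM in wild-type IR ovaries, and its log2 fold change was 0.07 (95% interval -0.08 to 0.21). Bok, a divergent effector kept low by protein turnover, had medians of 32.4 and 33.6 CPM, with a log2 fold change of -0.01 (interval -0.26 to 0.23). For both genes the ranges of the groups overlapped.

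Among the remaining BH3-only genes, Bcl2l11, which encodes BIM and acts in growth factor withdrawal, had medians of 33.5 CPM in wild-type non-IR and 35.6 CPM in wild-type IR ovaries (log2 fold change 0.06, interval -0.14 to 0.26). Bad, whose product is held inactive by survival signaling, was at medians of 20.5 and 18.2 CPM and had the lowest estimate, -0.14 (interval -0.30 to 0.01, edgeR adjusted p = 0.48). Bid, which links death receptors to mitochondria, was at 14.8 and 15.1 CPM. The estimates for Bid, Bmf and Bik were 0.00, -0.04 and 0.04, with intervals that lay within -0.37 and 0.44. At this precision, changes of more than 1.36-fold either way were outside the interval of each of these 7 members.

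Set per kilobase of exon (GENCODE M21 lengths), the effectors were the most abundant members in wild-type non-IR ovaries: Bax had a mean of 32.1 CPM per kb, Bak1 18.7 and Bok 18.4, the last pair within the spread between libraries. Bad followed at 7.94 CPM per kb, then Bid (4.28), Bcl2l11 (4.25) and Bmf (3.89), which were not set apart clearly beyond their spread. Bbc3 (2.79), Bik (1.37) and Pmaip1 (0.97) were lowest. In wild-type IR ovaries Bbc3 had a mean of 10.4 CPM per kb and Pmaip1 6.21, above Bid at 4.28, and Bax had 48.8.

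None of the 10 members was called in Chek2-/- ovaries after radiation (edgeR), where 0.0112% of all genes tested were called. DESeq2 and limma-voom also called 0 of the 10, and 2 of them, Bbc3 and Bax, had an unadjusted p under 0.05. Bbc3 ranged from 5.53 to 6.43 CPM (median 6.15) in Chek2-/- non-IR ovaries and from 6.75 to 9.66 CPM (median 8.26) in Chek2-/- IR ovaries. These ranges did not overlap, which was the case for 0.149% of all genes in this comparison, while the adjusted p of Bbc3 was 0.52 (log2 fold change 0.45, SE 0.12, interval 0.21 to 0.69).

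Pmaip1 and Bax overlapped between the Chek2-/- groups. Pmaip1 had 2.85 to 3.56 CPM (median 3.23) without radiation and 2.58 to 4.66 CPM (median 3.67) with it, a log2 fold change of 0.18 (interval -0.20 to 0.56). Bax had 48.0 to 53.3 CPM (median 50.01) and 50.8 to 57.3 CPM (median 55.3), a log2 fold change of 0.13 (interval 0.00 to 0.25, edgeR adjusted p = 1). The other 7 members had estimates between -0.12 and 0.06.

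The radiation change was compared directly between the genotypes, as the interaction of genotype and treatment. The same 3 members were called, with 1.03% of all genes tested called. The log2 change of Pmaip1 was larger in wild-type than in Chek2-/- ovaries by 2.50 (SE 0.26, edgeR adjusted p = 2.0e-06), that of Bbc3 by 1.44 (SE 0.17, adjusted p = 8.1e-06) and that of Bax by 0.48 (SE 0.08, adjusted p = 0.0022). For the other 7 members the difference lay between -0.13 and 0.16, with intervals that reached from -0.56 to 0.73.

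**Figure D2:**
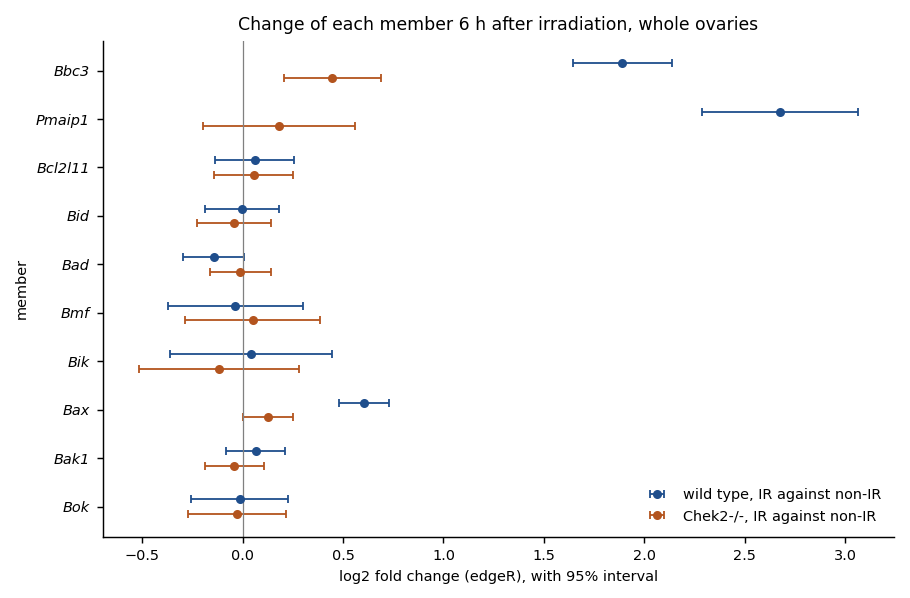
Log2 fold change of each member (horizontal axis) 6 h after radiation in wild-type (blue) and Chek2-/- (orange) ovaries, with 95% intervals from the edgeR fit over 24 bulk libraries. Only the wild-type estimates of Pmaip1 (2.68), Bbc3 (1.89) and Bax (0.60) passed the test.

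No difference in a member was detected between the genotypes without radiation. None of the 10 was called in edgeR between non-irradiated Chek2-/- and wild-type ovaries, where 5.34% of all genes were called (1430, and 675, 716 or 573 without wild-type non-IR library 2, 3 or 4 and 807 without Chek2-/- non-IR library 1); 1 member, Bok, had an unadjusted p under 0.05, and DESeq2 and limma-voom called 0. The medians were 6.15 against 5.88 CPM for Bbc3, 3.23 against 2.37 CPM for Pmaip1 and 50.01 against 49.1 CPM for Bax. Bok was at a median of 28.6 against 32.4 CPM (log2 fold change -0.24, edgeR adjusted p = 0.23). Without both Chek2-/- libraries numbered 6, Bmf was called as lower in Chek2-/- ovaries (log2 fold change -0.41, edgeR adjusted p = 0.022), against -0.21 (adjusted p = 0.50) with them.

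Other genes of the apoptosis pathway were called at a share near the 2.41% of all genes, so the counts are no result about them as a group. Of 8 other BH3-only or BCL2-related genes and 8 pro-survival genes, 0 were called in wild-type ovaries, with median log2 fold changes of -0.01 and 0.09 beside 0.00 over all genes tested. Mcl1, the main partner of NOXA, had 0.09 (interval -0.02 to 0.19) and Bcl2l1, which encodes BCL-XL, had -0.03 (interval -0.15 to 0.09). Of 12 genes acting at or after the mitochondrion, 1 was called: Apaf1, the scaffold of the apoptosome, rose from a median of 36.7 to 51.1 CPM (log2 fold change 0.44, edgeR adjusted p = 1.9e-05). Its change was also larger in wild-type than in Chek2-/- ovaries, by 0.39 (edgeR adjusted p = 0.013).

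Among 8 upstream transcription factors, Trp73, which encodes the p53 relative p73, was the only one called by edgeR. It went from a median of 2.08 to 15.9 CPM in wild-type ovaries (log2 fold change 2.80, SE 0.26, edgeR adjusted p = 8.4e-08). Trp63 had a median of 34.2 CPM without and 27.1 CPM with radiation (log2 fold change -0.41, adjusted p = 0.082, and 0.043 in DESeq2), and Trp53 had a log2 fold change of -0.06 (interval -0.18 to 0.06). In the comparison list of 7 p53 targets, 6 rose in wild-type ovaries in edgeR, beside 2.41% of all genes, and DESeq2 also called the remaining one, Perp (adjusted p = 0.024). This list was chosen with earlier results of these data known, so its counts are no independent result. Ccng1 (log2 fold change 0.56, adjusted p = 6.8e-07) and Eda2r (0.53, adjusted p = 0.0043) also rose in Chek2-/- ovaries in edgeR, beside 0.0112% of all genes, and DESeq2 called Phlda3 there too (adjusted p = 0.024).

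The summed level of the 6 markers of primordial-type oocytes, all measured, ran from 379.9 to 509 CPM in wild-type non-IR ovaries, 291 to 384 CPM in wild-type IR ovaries, 303 to 550 CPM in Chek2-/- non-IR ovaries and 373 to 544 CPM in Chek2-/- IR ovaries. The 12 oocyte markers together ran from 3589 to 4442, 3479 to 4172, 2023 to 3842 and 2272 to 3876 CPM in the same order. Fewer cells of a type and less RNA per cell cannot be told apart in bulk ovaries, and the part of these shifts in the members' changes was not tested. The cell classes below give each member's level among the RNA of a class.

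Over the 24 bulk libraries, the genes whose log2 CPM followed Bbc3 most closely were Fam83b and Plcxd1 (Pearson r = 0.971 for both), Ano3 (0.965), Ccng1 (0.963) and Eda2r (0.962). For Pmaip1 they were Fam83b (0.978), Plcxd1 (0.963), Hmcn2 (0.962), Bag4 (0.959) and 2810029C07Rik (0.958). For Bax they were Phlda3 (0.946), Inka2 (0.939), Bbc3 (0.923), Gm37795 (0.922) and Ano3 (0.918). These values describe a pattern shared by 4 groups, in which the wild-type IR libraries stood above the rest.

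Single-cell libraries resolved where in the ovary each member was found. Clusters were named from marker genes, and all 12 oocyte markers passed in the oocyte-like cluster and 9 or 10 of 10 granulosa markers in the granulosa-like clusters. The text calls them oocytes and granulosa cells. There were 222 oocytes in the wild-type non-IR library, 177 in wild-type IR, 79 in Chek2-/- non-IR and 143 in Chek2-/- IR, with median depths of 161103, 14183, 151598 and 115117 unique molecular identifiers (UMIs, each standing for a captured RNA molecule). Levels are UMIs of a gene per 10000 UMIs of the class, and all 95% intervals cover counting error only. With 1 library per condition there was no replicate check and no test. The oocyte class took in sub-cluster 5, with 48 cells of which 30 were from the wild-type non-IR library, which was led by Dcn, Tcf21 and Col1a1 and had 106 UMIs of the 10 fibroblast markers and 37.4 of the 12 oocyte markers per 10000. It also took in sub-cluster 6, with 56 cells at a median of 2730.5 UMIs. Between 30 and 73 barcodes were shared by each pair of libraries, and 6 of the 621 oocytes had one of them.

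Pmaip1 and Bik had higher levels in oocytes than in granulosa cells, and Bok, Bak1 and Bad had lower ones, in all 4 libraries. In the wild-type non-IR library, 2 of the 10 members were at least 2-fold higher in oocytes, as were 27.7% of all genes with at least 20 UMIs, and 3 were at least 2-fold lower, as were 23.6%. The Chek2-/- non-IR library gave the same members, where 27.9% of all genes were higher and 28.8% lower. These shares of the members were close to the background, so they are given as values of single genes and not as a result about the family.

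Pmaip1 had 0.0247 UMIs per 10000 in oocytes and 0.00138 in granulosa cells of the wild-type non-IR library, a ratio of 17.2 (interval 9.19 to 38.9). The ratio was 47.2 (24.7 to 113) in the Chek2-/- non-IR library. RNA set free by broken oocytes can put oocyte transcripts into other droplets, so the share of the oocyte level seen in granulosa cells was compared with that of the 12 oocyte markers: Pmaip1 stood at 5.59% in the wild-type non-IR library, above the markers' range of 0.364 to 2.24%.

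Bik, which encodes a BH3-only protein of the endoplasmic reticulum, had a ratio of oocytes to granulosa cells of 4.24 (3.23 to 5.61) in the wild-type non-IR library. It was higher still in endothelial cells, at 0.578 UMIs per 10000 against 0.0504 in oocytes. Bmf, whose product is tied to the cytoskeleton and loss of attachment, had 0.280 in endothelial cells (interval 0.230 to 0.338) and 0.0271 in oocytes of that library, and 0.218 in macrophages (0.0942 to 0.430), which could not be set apart from the endothelial level.

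Bok had 1.73 UMIs per 10000 in granulosa cells and 0.216 in oocytes without radiation, a ratio of 0.125 (0.115 to 0.135), and ratios of 0.0503 to 0.105 in the other 3 libraries. Bak1 had ratios of 0.178 to 0.267 and Bad of 0.403 to 0.448 over the 4 libraries. The oocyte level was thus the lower one for these 3 genes in each library. Bax showed another order: its ratio was 1.56 (1.505 to 1.61) in the wild-type non-IR library, 1.76 in Chek2-/- non-IR and 1.38 in Chek2-/- IR, and 0.806 (0.775 to 0.838) in wild-type IR.

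**Figure D3:**
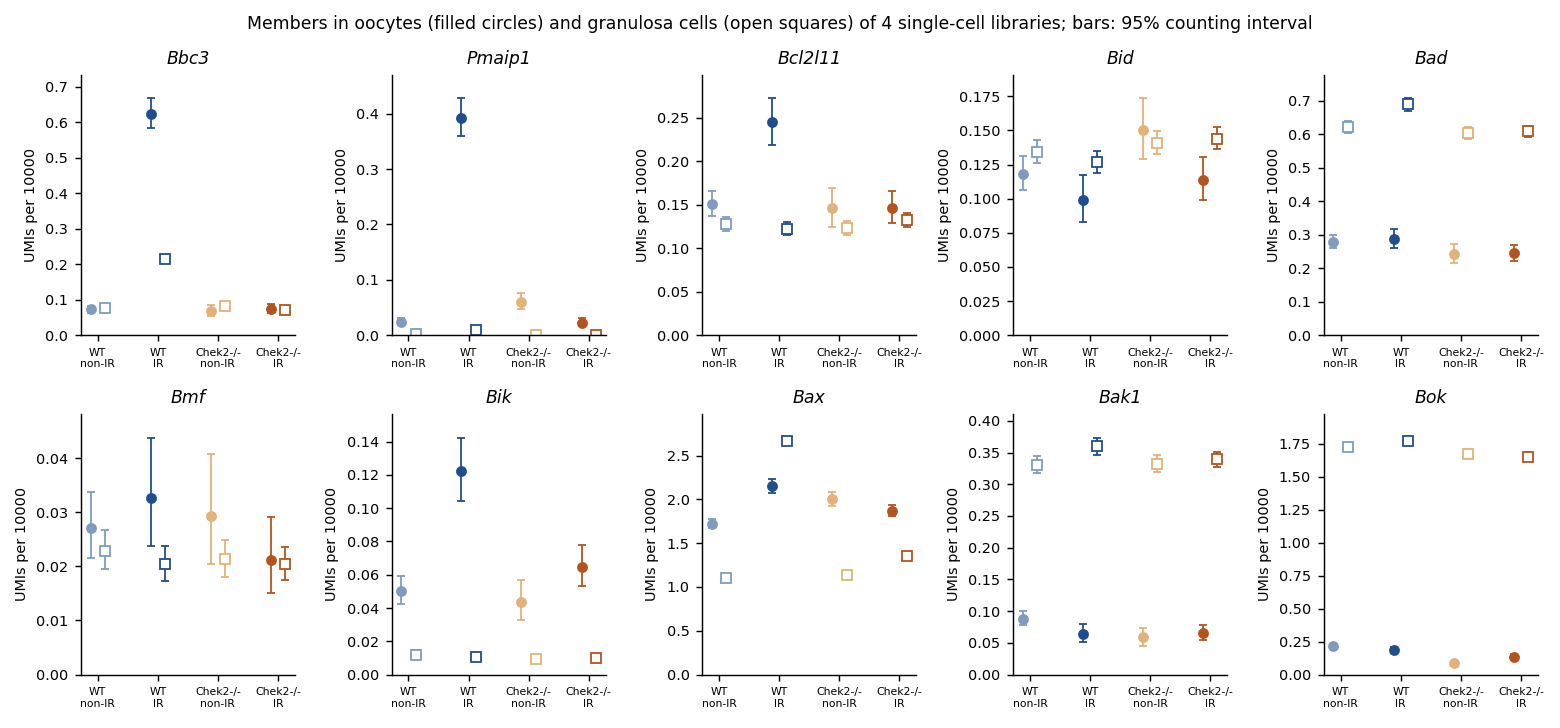
UMIs per 10000 (vertical axes, each starting at 0) of the 10 members in oocytes (filled circles) and granulosa cells (open squares) of the 4 single-cell libraries, with 95% counting intervals. Bbc3 and Pmaip1 stood highest in oocytes of the wild-type IR library (0.624 and 0.393), and Bax in its granulosa cells (2.67).

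After radiation, Bbc3 and Pmaip1 were at a higher level in wild-type oocytes than in granulosa cells, and Bax was at a lower one. In oocytes, 4 of the 10 members, Bbc3, Pmaip1, Bik and Bcl2l11, were at least 1.5-fold higher in the IR library, beside 15.4% of all genes. With equal weight for each cell, Bcl2l11 was at 1.41, under that limit, and Bok at 2.37, over it. Without sub-clusters 5 and 6, equal weight put Bcl2l11 at 1.579, over the limit. In granulosa cells, 3 of the 10, Bax, Bbc3 and Pmaip1, were at least 1.5-fold higher, beside 5.86% of all genes, and the same 3 were in stromal fibroblasts, beside 3.42%. In surface epithelial cells 6 of the 10, these 3 with Bak1, Bok and Bid, passed 1.5-fold, beside 8.79%.

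In wild-type oocytes Bbc3 had 213 UMIs without and 842 UMIs with radiation, or 0.0730 and 0.624 UMIs per 10000, a ratio of 8.53 (7.35 to 9.98), and 16.9 with equal weight for each cell. Pmaip1 had 72 and 530 UMIs, or 0.0247 and 0.393 per 10000, a ratio of 15.8 (12.4 to 20.7), and 16.2 with equal weight, so the order of Bbc3 and Pmaip1 depended on the weighting. Bax had 1.73 and 2.15 per 10000, a ratio of 1.25 (1.19 to 1.31), and 1.34 with equal weight. The ratios of the BH3-only pair were thus several times that of the effector in these cells.

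Bik had 0.0504 UMIs per 10000 in non-IR and 0.122 in IR wild-type oocytes, a ratio of 2.43 (1.93 to 3.05). Bcl2l11 had 0.151 and 0.245, a ratio of 1.62 (1.399 to 1.87). Neither gene passed the test in bulk ovaries. Bik differed between oocyte sub-clusters of the wild-type non-IR library, with 0.139 and 0.157 UMIs per 10000 in sub-clusters 0 and 2. It had 0.0216 to 0.0298 in sub-clusters 1, 3 and 4, and the part of this mix in its ratio was not tested. Within the oocyte sub-cluster numbered 4 the ratio of Bik was 1.38 (0.320 to 3.53), on 4 UMIs in the IR library. That of Bcl2l11 was 1.75 (1.16 to 2.50) there. In sub-cluster 0, Bcl2l11 went the other way, with 0.322 UMIs per 10000 in wild-type non-IR and 0.229 in wild-type IR oocytes, and the intervals overlapped. Bak1 had a ratio of 0.735 (0.567 to 0.937), while within sub-cluster 4, which held many cells of both wild-type libraries, it was 2.00 (1.33 to 2.88). Bok had a ratio of 0.864 (0.742 to 1), and 2.92 (2.38 to 3.53) within sub-cluster 4. With equal weight for each wild-type oocyte, Bok had a ratio of 2.37 and Bak1 of 0.632, or 2.62 and 1.007 without sub-clusters 5 and 6. The direction of Bok in wild-type oocytes thus depended on the weight given to each cell and that of Bak1 on which oocytes were compared, and no direction is read for either. Sub-cluster 4 also had the most RNA of granulosa markers, at 11.07 UMIs per 10000 against 0.67 to 5.23 in the other sub-clusters, and Bak1 and Bok were higher in granulosa cells than in oocytes. The sum of these markers in sub-cluster 4 was 12.6 per 10000 in wild-type IR and 11.3 in wild-type non-IR cells, that of the fibroblast markers was 12.1 and 2.63, and the part of such RNA in the ratios was not tested. In sub-cluster 7, with 1.60 of granulosa markers, wild-type IR oocytes had 0.0520 of Bak1 and 0.0902 of Bok, against 0.244 and 0.974 in those of sub-cluster 4. Bid, Bad and Bmf had ratios from 0.842 to 1.21 over all oocytes, and Bmf 3.22 (1.43 to 6.32) within sub-cluster 4, on 11 UMIs in the IR library.

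In wild-type granulosa cells the ratios of Bax and Bbc3 lay closer together. Bax had 8021 UMIs without and 20804 UMIs with radiation, or 1.11 and 2.67 per 10000, a ratio of 2.41 (2.35 to 2.48), above its ratio in oocytes, and the intervals did not overlap. Bbc3 had a ratio of 2.79 (2.53 to 3.07), from 0.0767 to 0.214 per 10000. Pmaip1 had 10 and 76 UMIs, a ratio of 6.78 (3.64 to 15.3), and even after radiation reached 0.00975 per 10000, against 0.393 in oocytes. That was 2.48% of the oocyte level, where the 12 oocyte markers stood at 0.137 to 2.12%. The ratio of oocytes to granulosa cells was 40.1 (31.6 to 51.9) in this library, so within counting error the 2.48% was not set apart from the highest marker. The part of free oocyte RNA in these granulosa counts was not tested.

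Bax was higher in the IR library in each somatic class of wild-type ovaries. Its ratio was 2.38 (2.32 to 2.45) in stromal fibroblasts, 2.46 (2.19 to 2.77) in surface epithelial cells, 2.41 (2.18 to 2.67) in endothelial cells, 2.20 (1.95 to 2.48) in perivascular smooth muscle and 2.66 (2.25 to 3.16) in pericytes. In macrophages, with 52 cells or fewer in a library, it was 1.64 (1.299 to 2.11). Each of these ratios was above the 1.52-fold change of Bax in bulk wild-type ovaries (interval 1.395 to 1.66), but the macrophage interval included 1.52. The reason for this gap was not tested, and the single-cell ratios rest on 1 library per condition.

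The ratio of Bbc3 ranged more widely over the somatic classes. It was 4.75 (4.17 to 5.44) in stromal fibroblasts, 1.79 (1.31 to 2.51) in surface epithelial cells and 1.57 (1.17 to 2.15) in endothelial cells. In perivascular smooth muscle it went from 6 to 81 UMIs, a ratio of 15.0 (7.09 to 45.2). Pmaip1 had a ratio of 14.6 (8.79 to 28.1) in stromal fibroblasts, from 14 to 211 UMIs, and of 7.47 (4.11 to 16.7) in surface epithelial cells, where it reached 0.145 UMIs per 10000, the highest somatic level among classes of the wild-type IR library. Surface epithelial cells also had ratios of 1.59 (1.32 to 1.93) for Bak1, 2.05 (1.83 to 2.30) for Bok and 1.73 (1.22 to 2.53) for Bid. Bmf went the other way, with ratios of 0.494 (0.314 to 0.768) in these cells and 0.639 (0.564 to 0.724) in stromal fibroblasts. In stromal fibroblasts of Chek2-/- ovaries Bmf was also lower in the IR library, at 0.717 (0.622 to 0.825), an interval overlapping the wild-type one.

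The granulosa clusters differed in Bbc3 as well. In cluster 1, led by Amh and Ihh, genes of growing follicles, Bbc3 had 0.0295 UMIs per 10000 without and 0.166 with radiation, a ratio of 5.597 (4.299 to 7.47). In cluster 7, led by Bmp4 and Cxcl10, it had 0.131 and 0.284, a ratio of 2.17 (1.92 to 2.46), and in the dividing cluster 0, led by Pbk and Plk1, 0.0420 and 0.0892, a ratio of 2.12 (1.61 to 2.81). Bax had ratios of 2.00 to 2.72 over the 4 granulosa clusters of wild-type ovaries and 1.14 to 1.20 in the same clusters of Chek2-/- ovaries.

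**Figure D4:**
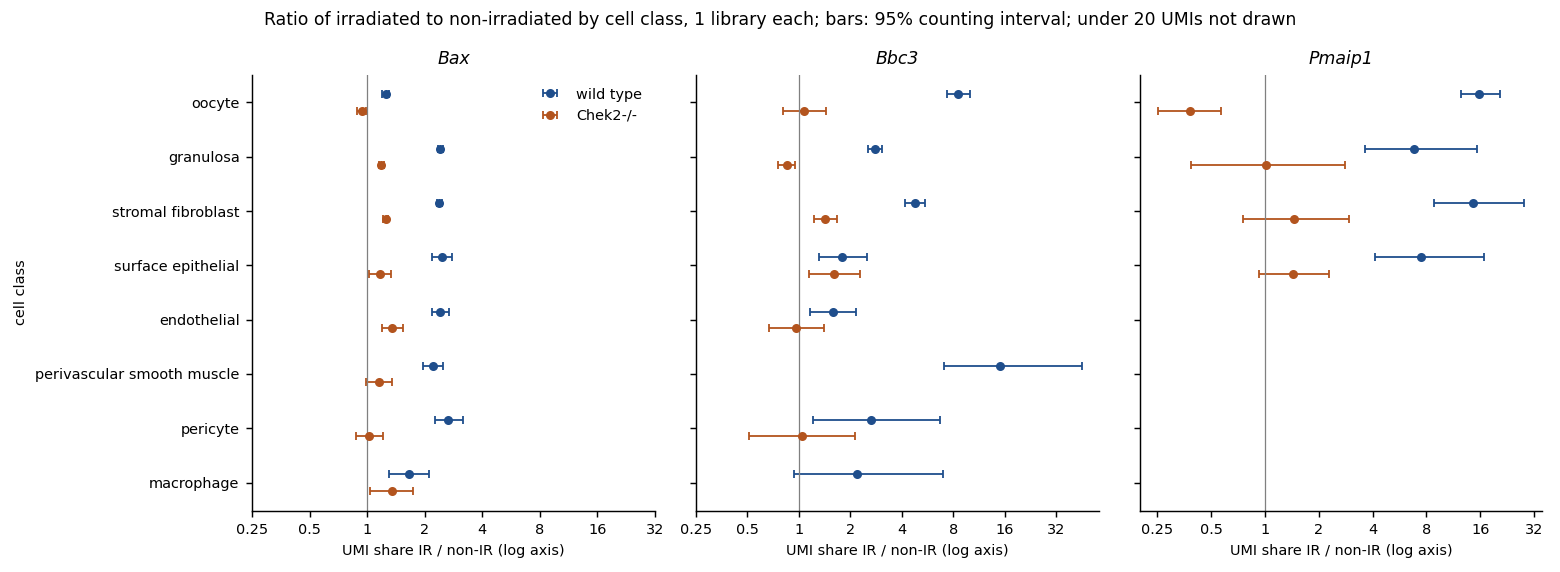
Ratio of the UMI share in the IR to that in the non-IR library (horizontal log axis) for Bax, Bbc3 and Pmaip1 in 8 cell classes of wild-type (blue) and Chek2-/- (orange) ovaries, with 95% counting intervals; pairs with under 20 UMIs are not drawn. In wild-type ovaries Bax was at 1.25 in oocytes and 1.64 to 2.66 in the somatic classes, and Bbc3 was at 8.53 in oocytes (16.9 with equal weight for each cell, not drawn) and 2.79 in granulosa cells.

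Without Chek2, 1 of the 10 members, Bok (ratio 1.60, interval 1.27 to 2.05), was at least 1.5-fold higher in oocytes of the IR library, beside 8.62% of all genes, and 0 of the 10 were in granulosa cells, beside 2.89%, or in stromal fibroblasts, beside 3.98%. In these oocytes Bik was just under the 1.5-fold limit, with a ratio of 1.48 (1.06 to 2.10). Bbc3 had 0.0695 UMIs per 10000 in Chek2-/- non-IR oocytes and 0.0748 in IR oocytes, a ratio of 1.07 (0.812 to 1.43), and Bax had a ratio of 0.933 (0.885 to 0.984). Pmaip1 was lower in the IR library, at 0.0603 and 0.0229 per 10000 (72 and 41 UMIs), a ratio of 0.381 (0.252 to 0.564), while within sub-cluster 4, on 8 UMIs in the IR library, it was 0.596 (0.178 to 2.399). With equal weight for each cell the Chek2-/- ratio of Pmaip1 was 0.177, or 0.323 without sub-clusters 5 and 6. In somatic classes of Chek2-/- ovaries Bax had ratios of 1.19 (1.15 to 1.22) in granulosa cells, 1.25 (1.21 to 1.29) in stromal fibroblasts and 1.35 (1.19 to 1.53) in endothelial cells, with intervals above 1, and of 1.03 (0.868 to 1.21) in pericytes. Bbc3 had ratios of 0.848 (0.756 to 0.9497) in granulosa cells and 1.43 (1.23 to 1.67) in stromal fibroblasts of Chek2-/- ovaries. Within the 4 granulosa clusters the Chek2-/- ratio of Bbc3 was 0.982 to 1.125, so the lower value was seen only when the clusters were pooled. The IR library held 990 cells of cluster 7 and 1469 of cluster 1, against 1303 and 1138 in the non-IR library, and Bbc3 was at 0.1652 UMIs per 10000 in cluster 7 and 0.0296 in cluster 1 of the latter. In surface epithelial cells of Chek2-/- ovaries 3 of the 10 members passed 1.5-fold, beside 4.07% of all genes: Bbc3 at 1.605 (1.14 to 2.29), near its wild-type ratio of 1.79 in this class and with an overlapping interval, Bmf at 1.602 (1.09 to 2.396) and Bik at 1.73 (0.806 to 4.08). Pmaip1 had 1.435 (0.921 to 2.28) there, and Bax 1.16 (1.02 to 1.33). For Bok in Chek2-/- oocytes, the ratio was 1.301 (0.945 to 1.85) within sub-cluster 4 and 0.965 with equal weight for each cell, or 1.74 without sub-clusters 5 and 6. Equal weight for each cell put Bmf at 1.80 and Bcl2l11 at 1.59 in Chek2-/- oocytes, over the 1.5-fold limit, against pooled ratios of 0.723 (0.445 to 1.18) and 1.006 (0.829 to 1.23), and without sub-clusters 5 and 6 Bmf was at 0.654 and Bcl2l11 at 1.054. Bak1 was at 1.12 (0.829 to 1.53) pooled, 1.408 with equal weight and 0.512 (0.304 to 0.881) within sub-cluster 4. Without sub-clusters 5 and 6, equal weight put it at 1.654, over the 1.5-fold limit.

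The ratios in wild-type oocytes were also taken in other ways, none of which makes the depths equal. Oocytes fell into 8 sub-clusters, of which sub-cluster 7, led by Cbr2, Cst6 and Slc6a8, held 76 cells, all from the wild-type IR library, and sub-cluster 4 held 75 wild-type non-IR and 62 wild-type IR cells. The depth gap remained within sub-cluster 4, with medians of 198935 UMIs in its wild-type non-IR and 3324 UMIs in its wild-type IR cells. Within sub-cluster 4 the ratio was 6.81 (5.18 to 8.91) for Bbc3, 14.2 (9.02 to 22.7) for Pmaip1 and 1.19 (1.05 to 1.34) for Bax. Without sub-clusters 5 and 6 the pooled ratios were 8.48, 15.7 and 1.23, and with equal weight per cell 15.8, 12.3 and 1.256. Without the cells whose barcode was shared between libraries they were 8.54, 15.7 and 1.245.

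Wild-type IR oocytes were not alike in Bbc3 and Pmaip1. Sub-cluster 7 had 0.758 UMIs of Bbc3 per 10000 (714 UMIs) and 0.486 of Pmaip1 (458 UMIs), and the wild-type IR cells of sub-cluster 4 had 0.680 and 0.358. In sub-cluster 0, led by Obox5 and Fgf8, the 17 wild-type IR oocytes had 0.0816 of Bbc3 (20 UMIs) and 0.0694 of Pmaip1 (17 UMIs), against 0.0110 (3 UMIs) and 0.0146 (4 UMIs) in the 37 wild-type non-IR oocytes of that sub-cluster. Bax there was 0.816 per 10000 in IR and 0.838 in non-IR oocytes, and 2.47 in sub-cluster 7. Each of these values is a description of cells grouped by their own expression.

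**Figure D5:**
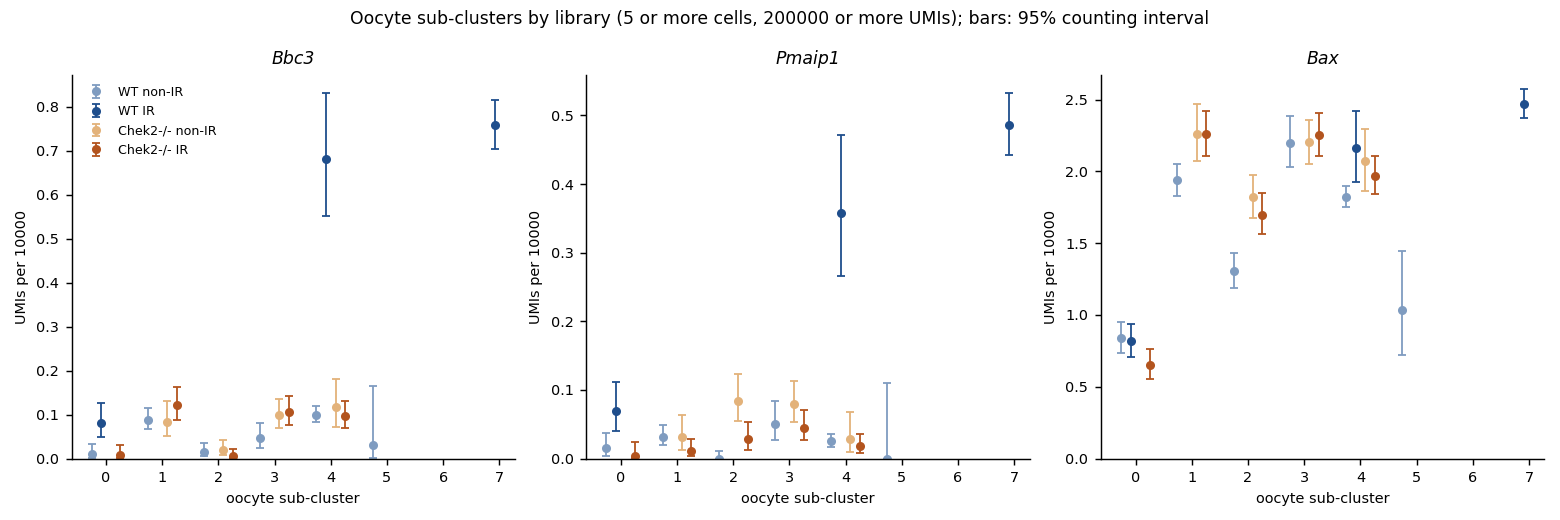
UMIs per 10000 (vertical axes, from 0) of Bbc3, Pmaip1 and Bax in the oocyte sub-clusters (horizontal axis) of each single-cell library with at least 5 cells and 200000 UMIs, with 95% counting intervals. Wild-type IR cells of sub-clusters 4 and 7 had 0.680 and 0.758 of Bbc3, and those of sub-cluster 0 had 0.0816.

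The pro-survival relative found chiefly in oocytes, Bcl2l10, had a ratio of 2.39 (2.29 to 2.49) in wild-type oocytes and 2.80 (2.63 to 2.99) in Chek2-/- oocytes. The wild-type ratio was 1.66 (1.26 to 2.12) within sub-cluster 4 and 0.611 with equal weight for each cell, and the Chek2-/- ratio 1.91 (1.21 to 3.28) and 1.97, so the direction in wild-type oocytes depended on the weighting. In bulk, Bcl2l10 had a log2 fold change of 0.10 (interval -0.41 to 0.60) in wild-type and -0.08 (interval -0.59 to 0.43) in Chek2-/- ovaries. Apaf1 had a ratio of 2.45 (1.93 to 3.12) in wild-type oocytes (4.18 with equal weight), 1.27 (1.155 to 1.399) in granulosa cells and 1.25 (1.16 to 1.36) in stromal fibroblasts. Trp73 had 29 UMIs in non-IR and 447 UMIs in IR wild-type oocytes, a ratio of 32.8 (22.9 to 50.3), or 34.2 with equal weight. Within sub-cluster 4 the ratio was 103.6 (37.75 to 604.5), on 3 UMIs in the non-IR library. In granulosa cells Trp73 had 4 and 18 UMIs.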

How the data were processed

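The data were 24 bulk and 4 single-cell RNA-seq libraries of mouse ovaries, 6 h after 0.5 Gy or sham treatment. The bulk table held estimated counts per gene, which the authors made with Salmon 1.3.0 after Trim Galore 0.6.5; the labels name mm10, and the methods name an Ensembl release, so the annotation is not settled here. The single-cell matrices held UMI counts per gene and cell barcode, deposited by the authors after Cell Ranger, whose version differs between the methods and the file headers. Counts split between near-identical genes cannot be told apart.

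Estimated counts were rounded, genes with at least 10 counts over all libraries were kept, and edgeR 4.0.16 (R 4.3.3) was fitted to all 24 libraries (TMM scaling, quasi-likelihood test, 1 coefficient per group), with Benjamini-Hochberg adjustment over all 26790 genes tested and calls at an adjusted p of at most 0.05. The fit was tested on simulated data. Alternatives were DESeq2 1.42.0, limma-voom 3.58.1, relative log expression scaling, other count filters, a minimum 2-fold change, a replicate block, only the groups compared, and leaving out each library. Libraries of 1 group differed by more than sampling noise (chi-square per degree of freedom 6.25 to 60.5), and p-values measure the spread between pairs of ovaries. CPM uses TMM scaling.

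Cells with at least 1000 genes, at most 20% mitochondrial and at most 50% ribosomal UMIs were kept, Scrublet doublet calls were removed, and the remaining 36524 cells were clustered in scanpy 1.11.5 (Leiden resolution 0.5). A class needed at least 60% of its list's markers, each in at least 25% of the cells and 2-fold over the median of clusters. UMIs were summed per class and library; ratios had 0.5 UMIs added to each sum, an exact conditional 95% interval, and were called at 1.5-fold (IR to non-IR) or 2-fold (oocytes to granulosa cells) with at least 20 UMIs. Doublets, the gene minimum, the resolution and a UMI minimum were varied. Named genes were the 10 members, the genes of 5 related lists, and for Bbc3, Pmaip1 and Bax the 5 genes with the most similar log2 CPM. The members and lists were chosen with earlier results of these data known.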

Additional observations from a re-analysis of the deposited data

Results flagged for a closer look

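The radiation change of 3 members differed between genotypes in the interaction test of edgeR: the log2 change was larger in wild-type than in Chek2-/- ovaries by 2.50 for Pmaip1, by 1.44 for Bbc3 and by 0.48 for Bax.

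In single cells, 5 members had pooled ratios on opposite sides of 1 in the 2 genotypes of a class, with both counting intervals clear of 1; with 1 library per condition, these differences were not tested. In oocytes the ratio of IR to non-IR was 15.8 in wild-type and 0.381 in Chek2-/- ovaries for Pmaip1, and 1.25 and 0.933 for Bax. With equal weight per cell the Chek2-/- ratio of Bax was 1.078, or 0.9805 without sub-clusters 5 and 6. In sub-clusters 1 to 4 of the Chek2-/- oocytes Bax had 1.70 to 2.26 UMIs per 10000 in the IR and 1.82 to 2.26 in the non-IR library, with counting intervals that overlapped within each sub-cluster. In granulosa cells it was 2.79 and 0.848 for Bbc3, in stromal fibroblasts 1.11 and 0.841 for Bcl2l11, and in surface epithelial cells 0.494 and 1.60 for Bmf. For Bbc3 the Chek2-/- ratio was 0.982 to 1.125 within the 4 granulosa clusters, and each of these intervals included 1. For Pmaip1 in Chek2-/- oocytes, equal weight per cell gave 0.177.

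Of the 40 sets of 6 libraries (10 members in 4 groups), 5 held a library far from the rest, where about 1 in 20 is flagged by chance. Chek2-/- non-IR library 6 had 29.3 CPM of Bmf (next 17.3), 3.80 CPM of Bik (next 2.40) and 49.9 CPM of Bak1 (next 43.4). Chek2-/- IR library 6 had 51.0 CPM of Bak1 (next 42.0). Wild-type non-IR library 2 had 23.9 CPM of Bmf (next 20.5). The oocyte markers of both Chek2-/- libraries numbered 6 summed to 2023 and 2272 CPM. Their surface epithelial markers summed to 1487 and 1290 CPM, the highest of their groups. Their granulosa markers summed to 1690 and 1645 CPM, the lowest of their groups. The part of these shifts in the values above was not tested.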

How the results depend on the processing

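The same 3 members were called in wild-type ovaries and in the interaction under every alternative run except the minimum 2-fold change, which left 2 (without Bax). Chek2-/- ovaries gave 0 under every alternative run. Between non-irradiated genotypes the count went from 0 to 1 (Bmf) without both Chek2-/- libraries numbered 6, chosen as an alternative after seeing the data. Leaving out each library in turn gave 3 members in wild-type ovaries and in the interaction, and 0 in the other comparisons; Bbc3 ranged from 1.82 to 1.96, Pmaip1 from 2.58 to 2.81 and Bax from 0.58 to 0.66 on the log2 scale in wild-type ovaries.

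The numbers in the titles were not treated as pairing the libraries, since not every same-numbered pair had a correlation over 0.1 in any pair of groups. The correlations were 0.058 to 0.657 between the Chek2-/- groups, with 5 of 6 over 0.1 and a median of -0.039 for other numbers, and -0.047 to 0.397 between the wild-type groups, with 3 of 6 over 0.1. A replicate block left 3, 0, 3 and 0 members called, and moved the calls over all genes from 646 to 661 in wild-type ovaries and from 1430 to 2025 between non-irradiated genotypes. That comparison had 2423 calls in DESeq2, 785 with only the groups compared and 211 at a minimum 2-fold change, and 573 to 1800 with 1 library left out (Chek2-/- ovaries 2 to 5). The minimum 2-fold change gave 288 calls in wild-type ovaries, 167 in the interaction and 1 in Chek2-/- ovaries; DESeq2 gave 14 calls in Chek2-/- ovaries and 458 in the interaction; only the groups compared gave 1 call in Chek2-/- ovaries. Without both Chek2-/- libraries numbered 6, 1009 genes were called in wild-type ovaries. The causes were not tested.

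The ratios in wild-type oocytes stayed within their counting intervals under the 4 other settings of cell filter, doublets, resolution and UMI minimum. Of the alternatives added after seeing the data, sub-cluster 4 alone gave 6.81 for Bbc3 and 1.19 for Bax, and equal weight per cell gave 16.9 and 1.34. Equal weight without sub-clusters 5 and 6 gave 15.8 for Bbc3 and 12.3 for Pmaip1, and turned Bak1 to 1.007. Within sub-cluster 4 the ratio of Bak1 in wild-type oocytes was reversed to 2.00, that of Bok went from 0.864 to 2.92 (2.37 with equal weight per cell), and Bik in Chek2-/- oocytes was at 0.276 (0.0215 to 2.25) on 2 and 3 UMIs, which shows no direction; with equal weight per cell, Chek2-/- oocytes gave 1.078 for Bax and 0.965 for Bok, also reversed, and 1.80 for Bmf (0.723 pooled). Bak1 in Chek2-/- oocytes went from 1.12 to 0.512 within sub-cluster 4. The single-cell libraries had no replicates, and depth limits Pmaip1 in somatic classes, with 10 UMIs in wild-type non-IR granulosa cells.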
